A study of Mus musculus with 2 samples.

Results

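The nuclear genes of oxidative phosphorylation were followed across the cell classes of mouse bone marrow and between wild-type animals and animals without LCR1. They were chosen by gene symbol alone: the subunit genes of respiratory complexes I to V (names starting with Nduf but not Ndufaf, with Uqcr, Cox4i, Cox5, Cox6, Cox7, Cox8 or Atp5, and Sdha to Sdhd) with at least 20 unique molecular identifiers (UMIs) over both libraries. Of 31053 listed genes, 85 carried such a symbol and 80 were kept, 37 for complex I, 4 for complex II, 8 for complex III, 15 for complex IV and 16 for complex V. The 5 left out (Cox7b2, Cox8b, Cox8c, Ndufa4l2 and a further identifier named Atp5o) had 0 UMIs, and the kept genes with the fewest were Cox4i2 (34 UMIs) and Cox7a1 (125 UMIs). The symbols decide the complex here, so Ndufa4 is counted with complex I and Cox7a2l with complex IV by name only.

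Oxidative phosphorylation passes electrons from NADH (complex I) or succinate (complex II) through complexes III and IV to oxygen, and complex V uses the proton gradient so formed to make ATP. Complexes I, III, IV and V join subunits encoded in the nucleus with a few encoded by mitochondrial DNA, whereas all subunits of complex II are nuclear. Many nuclear subunits have a single gene used by nearly every cell, but some have isoform genes, among them several of complex IV, such as Cox6a1, the widespread form, and Cox6a2, the form known from heart and skeletal muscle.

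The data are 2 libraries of droplet single-cell RNA sequencing (10x Genomics, 3' end chemistry), 1 of wild-type LCR1+/+ mice (WT) and 1 of LCR1-/- mice (KO), so no difference between genotypes has a replicate check. Both groups were C57BL/6 mice of 8 to 12 weeks. Each library is a pool of animals, males and females in equal number, and the sort took viable cells that were CD45+, Lineage- and CD127+. LCR1 matches no gene symbol in the matrices, so no transcript level checks the deletion here. A barcode was kept where it had 1000 genes or more and a mitochondrially encoded share of its UMIs no higher than 10%. This left 3290 in WT and 4343 in KO, with a median of 5371.5 and 7261 UMIs. The libraries listed 75 barcode sequences in common, and 0 among the kept ones. Cells were assigned to classes by marker genes, none of them an oxidative phosphorylation gene, and 6 classes had at least 50 cells in each library: group 2 innate lymphoid cells (ILC2, 608 WT and 499 KO cells), ILC precursors (106 and 435), NK cells or ILC1 (113 and 417), common lymphoid progenitors (695 and 1006), plasmacytoid dendritic cells (153 and 157) and basophils or mast cells (268 and 181). Each class held UMIs of all its 8 to 10 markers, except that Klk1 and Cd209d were at 0 in the KO plasmacytoid dendritic cells. That class also carried the progenitor markers, at 2610 CPM (WT) and 2832 CPM (KO) summed, beside 2698 and 2089.8 CPM of its own list. It is named because cells with 3 or more Siglech UMIs were not offered the progenitor list. The progenitors carried 209 and 196 CPM of the dendritic cell list. Together the 6 classes held 59.1% of the kept WT and 62.1% of the kept KO cells. Levels are UMIs of a gene per 1000000 UMIs of a class and library (CPM), and intervals (95%) cover counting error only.

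By UMI totals, ILC2 devoted the smallest share of their transcripts to these genes and plasmacytoid dendritic cells the largest. With trimmed-mean (TMM) scaling of the class totals both ends were shared: progenitors came to 1.98% in WT and 1.97% in KO against 1.97% and 1.92% for plasmacytoid dendritic cells, and ILC2 to 1.55% and 1.597% against 1.64% and 1.598% for ILC precursors. The 80 genes together made up 1.41% of ILC2 UMIs in WT (95% exact Poisson interval 1.40 to 1.42) and 1.37% in KO (1.35 to 1.38). In ILC precursors the share was 1.82% in WT and 1.70% in KO. In NK cells or ILC1 it was 1.81% and 1.89%. Basophils or mast cells held 1.81% and 1.73%, which in WT differed from NK cells or ILC1 and from ILC precursors by less than the counting intervals. Common lymphoid progenitors held 2.02% and 1.92%, and plasmacytoid dendritic cells 2.19% (2.17 to 2.21) and 2.11% (2.09 to 2.13). Without Cox6a2 the plasmacytoid dendritic cells came to 2.00% and 1.94%, beside 1.99% and 1.89% for the progenitors without it, so most of their lead over the progenitors was this 1 gene.

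**Figure D1:**
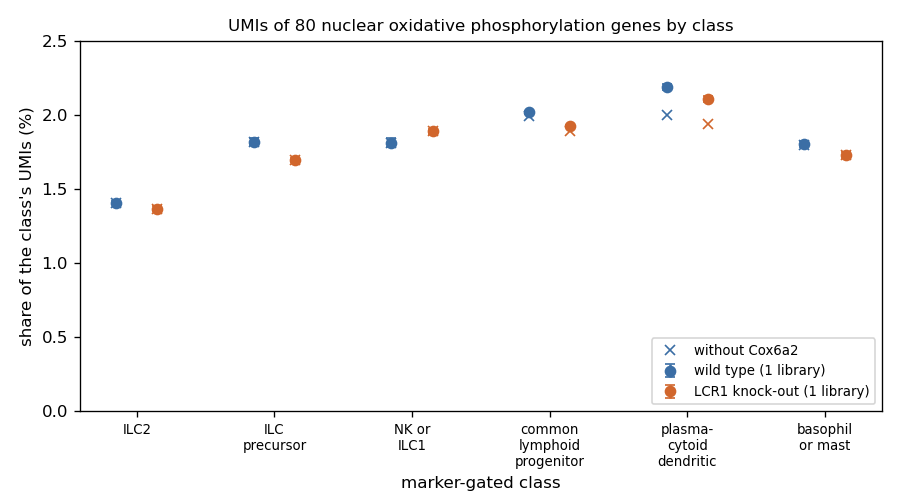
Share of each class's UMIs (y axis, %) that belonged to the 80 nuclear oxidative phosphorylation genes, by marker-gated class (x axis) in the WT and the KO library, 1 library each. Filled points show all genes with 95% Poisson intervals, which are mostly smaller than the points, and crosses leave out Cox6a2. ILC2 are lowest in both libraries, at 1.41% and 1.37%.

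The low share in ILC2 was spread over all 5 complexes. Against the median of the other 5 classes, the summed level in ILC2 was 0.768 times as high in WT and 0.761 times in KO for complex I, 0.903 and 0.842 for complex II, 0.728 and 0.764 for complex III, 0.727 and 0.706 for complex IV, and 0.760 and 0.688 for complex V. The 13 subunits encoded by mitochondrial DNA were not lower there, at 1.02 and 1.07 times the other classes. Of the 75 nuclear genes that reached 50 UMIs over both libraries and 50 CPM in a class of each, 67 (89.3%) lay below the other classes' median in both libraries, against 60.5% of all 4420 genes tested. ILC2 was the lowest of the 6 classes in both for 53 of the 75 (70.7%), against 25.6% of all genes. All genes tested moved the same way to a smaller extent: the median log2 difference of ILC2 from the other classes was -0.42 in WT and -0.44 in KO over the 75 genes, and -0.18 and -0.27 over all 4420 genes tested. With TMM scaling these medians were -0.22 and -0.21 for the 75 genes and 0.0063 and -0.045 for all genes, and 53 of the 75 (70.7%) were below the other classes in both libraries, against 44.1% of all genes. ILC precursors were then close to ILC2, with medians of -0.12 and -0.19 (all genes -0.051 and -0.032) and 50 of the 75 below in both (66.7%, against 43.5%).

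Past a 1.5-fold difference in both libraries, 13 of the 75 genes were lower in ILC2 and 0 were higher. Over all 4420 genes 18.3% were lower by that rule and 9.66% higher. The count of lower members was thus near the background and that of higher members below it, while the direction was shared by most members. Among the 13 were Ndufa11, Ndufab1, Ndufb6, Ndufb8 and Ndufc1 of complex I, Uqcr11 and Uqcrq of complex III, Cox5a and Cox5b of complex IV, and Atp5f1, Atp5g1 and Atp5g3 of complex V. With TMM scaling 3 remained, Cox5a, Uqcr11 and Uqcrq, beside 11.9% of all genes. The 7 members above the other classes' median in ILC2 in both libraries were Ndufa5, Ndufa6, Ndufa13, Ndufs4, Ndufv3, Uqcrh and Cox7a2l, at 1.002 to 1.22 times.

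Proliferation differed between the classes as well. The summed level of 12 cell cycle genes was 497 CPM in WT and 240.0 CPM in KO ILC2, against 935 to 3274 CPM in the other WT classes and 795 to 2697 CPM in the other KO classes. The 56 LTi-like ILC3 of the KO library (0 in WT), with 244 CPM of cell cycle transcripts, held 1.82% oxidative phosphorylation UMIs (1.77 to 1.87). Among cells with no UMI of the cell cycle genes, ILC2 held 1.35% (193 WT cells) and 1.32% (225 KO cells), and basophils or mast cells were lower, at 1.201% (26 cells) and 1.14% (27 cells). The other 4 classes then ranged from 1.35% to 1.93%. They held 12 WT and 111 KO ILC precursors, 28 and 128 NK cells or ILC1, 18 and 38 progenitors, and 4 and 10 plasmacytoid dendritic cells. Having no UMI of these genes also depends on a cell's depth, which was not matched between the classes here. The part of cycling in the class differences was not tested further.

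Cell by cell the classes overlapped. With each cell thinned to 1500 UMIs, which left out 0 cells, ILC2 had a median of 20 member UMIs in WT (lowest 3, highest 47) and 19 in KO (3 to 38). Plasmacytoid dendritic cells had a median of 31 in both libraries, from 9 to 59 in WT and from 10 to 52 in KO. Common lymphoid progenitors stood between, with medians of 29 and 27. Counts varied more than sampling alone gives in every class: the variance over the mean, near 1 for pure sampling, was 1.78 in WT and 1.61 in KO ILC2 and reached 3.08 and 3.71 in basophils or mast cells.

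**Figure D2:**
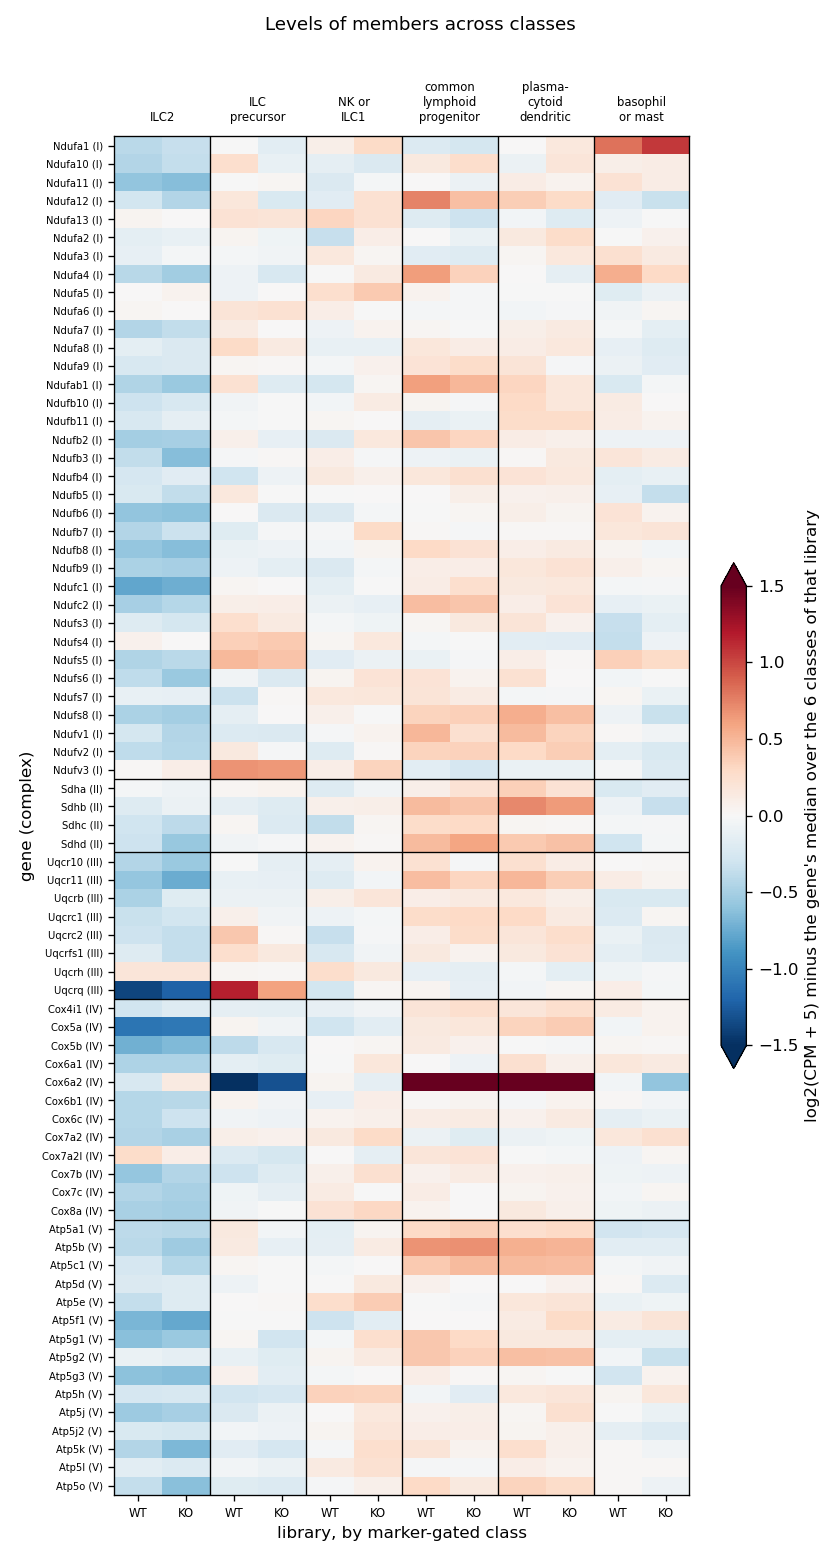
Levels of genes that passed the filter on low counts (rows, with the complex in brackets) in the 6 classes of the WT and KO libraries (columns). Colour shows log2(CPM + 5) minus the gene's median over the 6 classes of the same library, cut at 1.5 either way. The ILC2 columns are blue for most rows, and Cox6a2, Uqcrq, Cox5a and Ndufa1 show the strongest single-class colours.

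The members spanned a narrower range over the classes than the median of all genes tested. Between the highest and the lowest class, the median member spanned 1.57-fold in WT and 1.61-fold in KO, against 2.11-fold and 2.17-fold over all 4420 genes. A span of 2-fold or more in both libraries was seen for 7 of 75 members (9.33%) and for 50.3% of all genes. By the highest class over the median class, the smallest ratios were those of Atp5g3, Cox6b1, Cox7c, Cox5b and Atp5d. This measure leaves out the low end, and Atp5g3 and Cox5b were past 1.5-fold lower in ILC2 in both libraries. Cox7c, a small structural subunit of complex IV, ran from 419 CPM in ILC2 to 622 CPM in NK cells or ILC1 in WT, and from 426 CPM in ILC2 to 626 CPM in plasmacytoid dendritic cells in KO. Atp5d, the delta subunit of the complex V rotor, ran from 272 CPM in ILC2 to 330.4 CPM in progenitors in WT.

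Complex I, with 37 of the 80 members, supplied 5 of the 10 most class-dependent ones, near its share of the members. Of these, 4 were accessory subunits. Ndufa1, a small membrane-arm subunit needed for assembly of the complex, was highest in basophils or mast cells, at 264 CPM in WT (242 to 286) and 289.6 CPM in KO (265 to 316). Elsewhere it lay between 111 CPM in ILC2 and 157 CPM in NK cells or ILC1 in WT, and between 106 and 167 CPM in KO. The basophil or mast cell level was 1.77 times the other classes' median in WT and 2.33 times in KO, the only member past 1.5-fold higher in that class in both libraries, where 16.4% of all genes were higher and 11.8% lower, and 0 members were lower. The gene lies on chromosome X (37187588 to 37191163, minus strand, mm10). Thinned to 1500 UMIs a cell, 22.0% of WT and 28.7% of KO basophils or mast cells had a Ndufa1 UMI, against 12.5% and 13.4% of ILC2. With TMM scaling Ndufa4 joined Ndufa1 in basophils or mast cells, beside 18.7% of all genes.

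Ndufv3, a subunit beside the NADH-binding site, was highest in ILC precursors, at 290.4 CPM (WT) and 291.0 CPM (KO), and lowest in progenitors, at 160.3 and 154 CPM. Ndufa12, an accessory subunit, was highest in progenitors with 226 CPM in WT and 202 CPM in KO and lowest in ILC2 with 109 and 106 CPM. Ndufab1, the mitochondrial acyl carrier protein, had the same order of extremes, 185 and 169.7 CPM in progenitors against 85.4 and 79.3 CPM in ILC2. Ndufs8, an iron-sulphur subunit of the core, was highest in plasmacytoid dendritic cells at 127 and 114 CPM, and lowest in ILC2 at 60.1 and 56.3 CPM. By the 1.5-fold rule Ndufv3 was higher in ILC precursors (1.61 times in WT and 1.68 in KO) and Ndufa12 in progenitors (1.88 and 1.60).

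Complex II links the respiratory chain to the citric acid cycle, and its summed level was higher in progenitors and plasmacytoid dendritic cells than in the other classes. The 4 genes together reached 444 CPM in WT and 408 CPM in KO plasmacytoid dendritic cells and 407 and 402 CPM in progenitors, while the other 4 classes stayed between 280.4 and 311 CPM in WT and between 263 and 313 CPM in KO. Sdhb, the iron-sulphur subunit, was at 189 CPM (169 to 209.9) in WT and 186 CPM (167 to 207) in KO plasmacytoid dendritic cells, at 158 and 159.6 CPM in progenitors, and between 92.0 and 126 CPM in the remaining classes of both libraries. The dendritic cells and progenitors did not overlap with the others. Sdhd, a membrane anchor, was highest in progenitors, at 71.9 and 70.3 CPM, and lowest in ILC2, at 39.4 and 28.8 CPM. Sdhc and Sdha did not separate these classes fully. Sdhc in plasmacytoid dendritic cells (60.3 and 56.9 CPM) was near ILC precursors in WT (60.2 CPM) and NK cells or ILC1 in KO (57.6 CPM). Sdha in WT progenitors (105 CPM, 98.5 to 112) overlapped with ILC precursors (100.4 CPM).

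Promoter sequences (RefSeq, GRCm38.p6) from 250 bases before to 50 after the start were matched for 65 of the 80 genes. The letters GCATGCGC or their reverse complement, the binding sequence of nuclear respiratory factor 1 (NRF1), a general activator of respiratory chain genes, stood in 10 of the 65 (15.4%), against 3.05% of 27025 genes with a promoter. AAGATGGC, a core of the YY1 sequence, stood in 9 (13.8%, against 3.19%), and CCGGAAGT, an ETS family sequence, in 5 (7.69%, against 4.31%), all read on both strands. The 27025 genes were not limited to expressed ones, so these shares are not set against genes of similar level. A match is letters in a window and not a bound site. Sdhb and Cox6a1 hold NRF1 letters and are shown because the one is the complex II gene past 1.5-fold in plasmacytoid dendritic cells and the other the widespread partner of Cox6a2. Capitals mark the NRF1 letters, which in Cox6a1 match on both strands and overlap, and each sequence is on its gene's strand (Sdhb plus, chr4:140961021-140961320; Cox6a1 minus, chr5:115348909-115349208).
Sdhb: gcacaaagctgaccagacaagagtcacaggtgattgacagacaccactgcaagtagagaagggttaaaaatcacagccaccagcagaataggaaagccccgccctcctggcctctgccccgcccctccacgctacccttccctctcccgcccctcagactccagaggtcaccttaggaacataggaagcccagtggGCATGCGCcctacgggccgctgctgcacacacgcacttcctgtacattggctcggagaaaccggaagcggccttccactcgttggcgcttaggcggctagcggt
Cox6a1: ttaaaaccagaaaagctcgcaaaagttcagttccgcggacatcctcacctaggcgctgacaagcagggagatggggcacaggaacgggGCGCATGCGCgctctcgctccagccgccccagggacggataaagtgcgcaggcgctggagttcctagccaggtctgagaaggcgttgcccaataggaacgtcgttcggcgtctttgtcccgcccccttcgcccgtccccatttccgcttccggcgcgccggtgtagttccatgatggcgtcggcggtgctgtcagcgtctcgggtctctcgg

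In complex III, Uqcrq set ILC precursors apart from ILC2. It encodes a small subunit of the complex near the ubiquinone site. It was at 633 CPM (592 to 676) in WT and 425 CPM (405 to 446) in KO ILC precursors. In ILC2 it was at 104 CPM (94.3 to 115) and 117 CPM (104 to 131). The remaining classes lay between 231 and 300.02 CPM in WT and between 256 and 285 CPM in KO, overlapping with neither. ILC precursors stood 2.30 times over the other classes' median in WT and 1.54 times in KO, and ILC2 at 0.374 and 0.423 times. After thinning, 49.1% of WT and 36.1% of KO ILC precursors had a Uqcrq UMI, against 12.3% and 15.6% of ILC2. The gene lies on chromosome 11 (53427922 to 53430831, minus strand, mm10). Together with Ndufv3 it was 1 of 2 members higher in ILC precursors past 1.5-fold in both libraries, and Cox6a2 was the 1 member lower; of all genes 10.3% were higher and 5.2% lower. With TMM scaling Uqcrq was the 1 member higher there, beside 8.14% of all genes. Uqcrh, the hinge subunit that binds the cytochrome c1 part, was nearly flat, from 469 CPM in progenitors to 618 CPM in NK cells or ILC1 in WT and from 477 CPM in plasmacytoid dendritic cells to 601 CPM in ILC2 in KO.

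**Figure D3:**
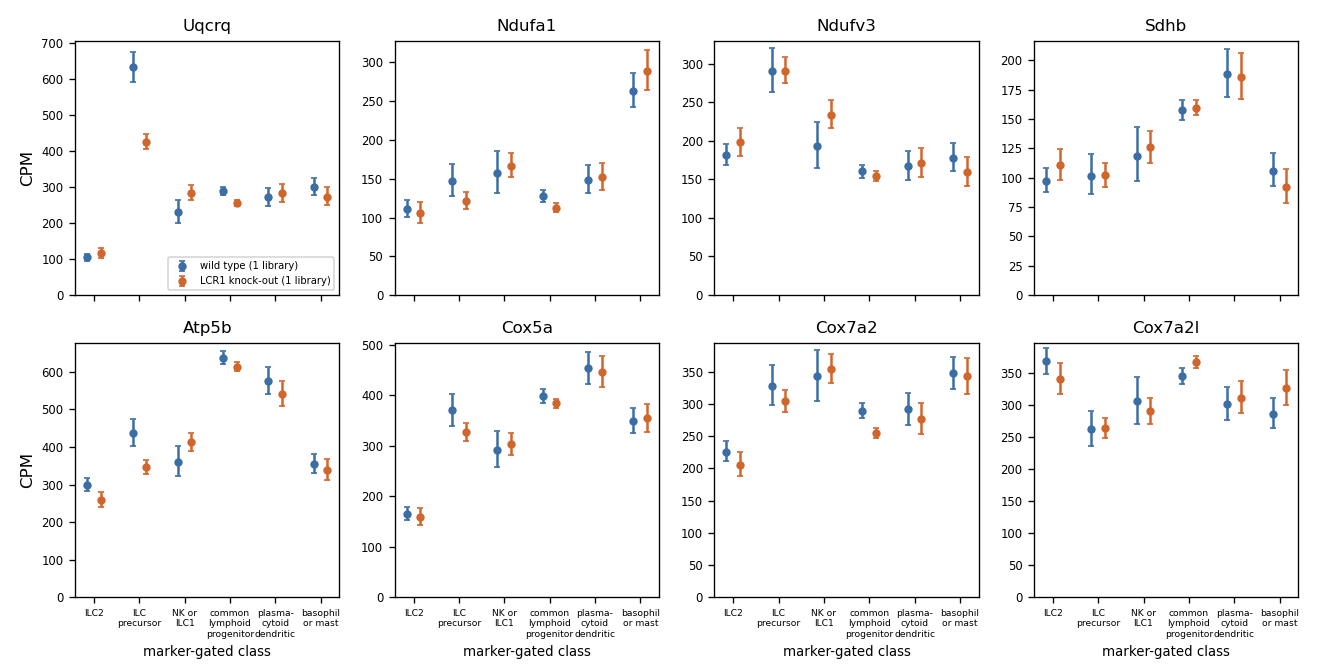
CPM (y axes, each from 0) of 8 members in the 6 classes (x axes) of the WT and KO libraries, 1 library each, with 95% Poisson intervals. Uqcrq is highest in ILC precursors (633 and 425 CPM), Ndufa1 in basophils or mast cells (264 and 289.6 CPM), and Cox5a is lowest in ILC2 (166 and 159 CPM).

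Atp5b, the catalytic beta subunit of complex V, was highest in progenitors, at 638 CPM (WT) and 614 CPM (KO), and next in plasmacytoid dendritic cells, at 576 and 542 CPM. The other classes stayed between 299 and 437 CPM in WT and between 260.04 and 413 CPM in KO. It was past 1.5-fold over the other classes in both of these classes and both libraries. The c-ring genes Atp5g1, Atp5g2 and Atp5g3 encode the same mature protein with different import sequences. Atp5g2 held the largest part of their UMIs in each class, from 47.3% to 59.1% over the WT classes and from 45.9% to 58.8% over the KO classes, and ILC2 had its highest share in both libraries. These shares are of UMIs at the 3' end and are not divided by length. Atp5g1 held 22.1% of them in WT and 23.6% in KO ILC2, and up to 28.5% (progenitors) and 29.7% (NK cells or ILC1). Atp5g3 held the remainder, 18.8% and 17.6% in ILC2.

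Complex IV carried the isoform differences. Cox5a, a structural subunit, had the lowest ILC2 level relative to other classes of the 75 genes after Uqcrq, at 166 CPM in WT (0.456 times the others' median) and 159 CPM in KO (0.458 times), against 292 to 453 CPM in the other WT classes and 303 to 446 CPM in the other KO classes. Cox5b was at 225 and 218 CPM in ILC2 and at 285 to 410.1 and 293 to 364 CPM elsewhere. Cox4i1 gave nearly all Cox4i UMIs, between 99.9% and 100% in every class, and Cox4i2, known from lung, was seen in 5 WT and 11 KO UMIs over the 6 classes. Cox6b2, known from testis, was below the filter on low counts. It was highest in basophils or mast cells at 40.8 CPM in WT (32.6 to 50.3) and 49.2 CPM in KO (39.3 to 60.96), which is 10.6% and 13.9% of Cox6b UMIs, next to Cox6b1 at 343 and 306 CPM. In ILC2 it was at 3.54 CPM and 0.835 CPM. Cox7a1, the heart and muscle form of Cox7a, was at 11.5 CPM in WT ILC precursors (6.56 to 18.6, 16 UMIs) and at 1.77 CPM in KO ones (7 UMIs), and at most 1.42 CPM in the other classes.

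ILC2 also had another balance of the Cox7a genes. Cox7a2, the general isoform, was lowest in ILC2 (226 CPM in WT and 206 CPM in KO, against 255 to 354 CPM elsewhere), while the related gene Cox7a2l was at 368 and 341 CPM in ILC2. The other WT classes lay at 262 to 345 CPM and the other KO classes at 264 to 368 CPM, with progenitors above ILC2 in KO. Cox7a2l gave 61.9% (59.9 to 64.0) of Cox7a UMIs in WT ILC2 and 62.3% (59.6 to 64.9) in KO, more than in any other class, the next being the progenitors with 54.3% and 58.9%. Of the other complex IV genes, Cox6b1 ran from 251 CPM in ILC2 to 353 CPM in ILC precursors in WT and from 236 CPM in ILC2 to 338 CPM in NK cells or ILC1 in KO. Cox6c, Cox7b and Cox8a had their lowest level in ILC2 in both libraries, at 430.0 and 430.3, 193 and 198, and 485 and 458 CPM. Their highest WT levels were 624 CPM (progenitors), 305.5 CPM (NK cells or ILC1) and 791 CPM (NK cells or ILC1).

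Cox6a2 was the member most restricted to classes. It lies on chromosome 7 (128205435 to 128206387, minus strand, mm10) and was at 1922 CPM (1858 to 1987) in WT and 1639.8 CPM (1582 to 1699) in KO plasmacytoid dendritic cells, where 96.7% and 98.7% of cells had a UMI. Common lymphoid progenitors held 291 CPM (279.9 to 303) and 302 CPM (293 to 310.4), with UMIs in 70.2% and 78.4% of cells. Every other class was lower, from 16.5 to 59.3 CPM in WT and from 4.04 to 19.6 CPM in KO. The order was the same in both libraries for plasmacytoid dendritic cells, progenitors and the rest, and ILC precursors were lowest in both. Thinned to 1500 UMIs, 83.0% of WT and 84.1% of KO plasmacytoid dendritic cells had a Cox6a2 UMI, as did 32.9% and 31.6% of progenitors. The share in ILC precursors, the class with the least, was 0.943% and 0.230%. That class was picked for its low Cox6a2, so it gives no separate measure of free RNA. The median depth of these 3 classes before thinning was 12265, 7090 and 11402 UMIs in WT and 11001, 14475 and 8258 in KO.

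Cox6a1 did not share this pattern. It lay between 173 and 286 CPM over the 6 WT classes and between 164 and 258 CPM over the KO classes. Cox6a2 therefore gave 87.0% (86.0 to 88.1) of Cox6a UMIs in WT and 87.2% (86.1 to 88.3) in KO plasmacytoid dendritic cells, and 54.6% and 58.3% in progenitors. In the remaining classes it gave 7.06% to 21.6% in WT and 1.98% to 10.7% in KO. Cox6a2, Atp5b and Sdhb were the 3 members higher in plasmacytoid dendritic cells past 1.5-fold in both libraries (0 lower), where 17.4% of all genes were higher and 8.89% lower. In progenitors the 3 were Cox6a2, Atp5b and Ndufa12 (0 lower), where 13.2% were higher and 10.2% lower. With TMM scaling, Cox6a2 alone was past the fold in plasmacytoid dendritic cells (13.6% of all genes), and Ndufa4 joined the 3 in progenitors (13.3%). In NK cells or ILC1, 0 members were higher and 0 lower, with 9.1% of all genes higher and 6.65% lower.

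**Figure D4:**
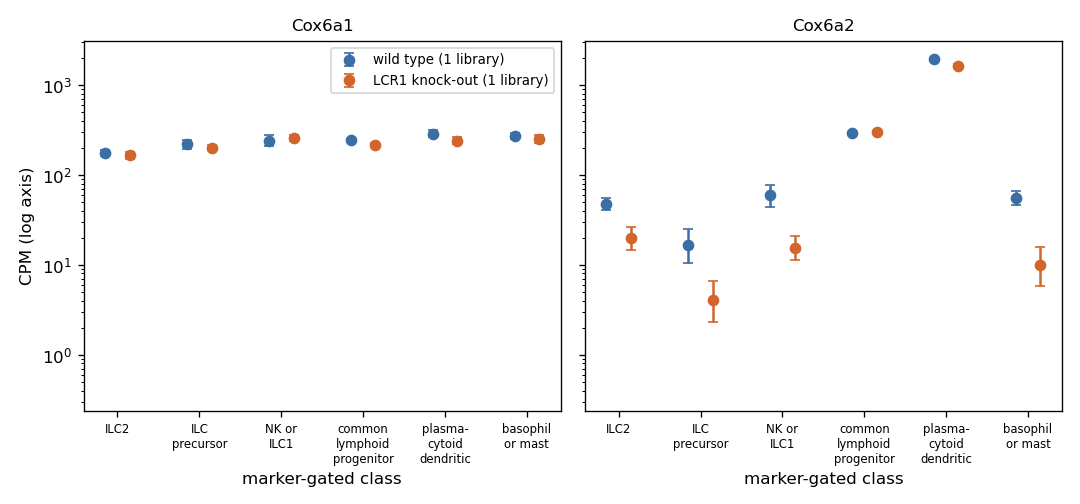
CPM of Cox6a1 (left) and Cox6a2 (right) on a shared log axis in the 6 classes (x axis) of the WT and KO libraries, 1 library each, with 95% Poisson intervals. Cox6a1 stays between 164 and 286 CPM in all classes, whereas Cox6a2 reaches 1922 and 1639.8 CPM in plasmacytoid dendritic cells and is under 60 CPM outside these and the progenitors.

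Progenitors held more Cox6a2 for each Siglech UMI than plasmacytoid dendritic cells did. Per UMI of Siglech, a lectin that marks plasmacytoid dendritic cells, those cells had 1.56 Cox6a2 UMIs in WT (1.48 to 1.65) and 1.91 in KO (1.80 to 2.04), whereas progenitors had 11.5 (10.1 to 13.3) and 18.1 (16.0 to 20.6). Cells with 3 or more Siglech UMIs could not be classed as progenitors, and Siglech is on the dendritic cell list. The gate thus favours this direction, and the ratios are no independent comparison of the 2 classes. In the 4 classes with little Cox6a2 the ratio was 1.24 to 3.29 in WT and 1.13 to 5.33 in KO, with wide intervals. Ly6d is a surface marker of lymphoid progenitors on the B and dendritic path. It was at 5799 (WT) and 5210 CPM (KO) in plasmacytoid dendritic cells, against 436 and 460 CPM in progenitors. Progenitors with a Ly6d UMI had 337 CPM of Cox6a2 in WT and 338 CPM in KO, against 226 and 262 CPM in those without. Their Siglech was higher too, at 33.8 against 12.97 CPM in WT and 19.6 against 13.5 CPM in KO. Their median depth was 8212 against 6048 UMIs in WT and 14419.5 against 14624 in KO. The part of Siglech and of depth in this difference was not tested. Within plasmacytoid dendritic cells Cox6a2 was 2067 CPM in WT cells with at least 10 Siglech UMIs and 1500.2 CPM in those below, and 1795 and 1517 CPM in KO. Among ILC2, those with a UMI of Calca had 67.0 CPM of Cox6a2 in WT and 34.3 CPM in KO, and those without had 17.4 and 1.85 CPM. Siglech moved with it, at 35.3 and 10.7 CPM against 5.56 and 2.77 CPM, and its part in the result was not tested.

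Gene groups around the respiratory chain were described by fixed lists. The 8 electron carriers and nucleotide exchangers were at 0.764 (WT) and 0.790 (KO) times the other classes in ILC2: cytochrome c (Cycs) at 72.1 and 55.9 CPM was 0.482 and 0.409 times, the ADP/ATP carrier Slc25a5 0.441 and 0.426 times and the complex V inhibitor Atpif1 0.382 and 0.354 times, while the phosphate carrier Slc25a3 was 1.40 and 1.24 times. The 13 citric acid cycle genes stood at 0.768 and 0.706 times, with fumarase (Fh1) at 0.466 and 0.564, and the 78 mitochondrial ribosomal protein genes at 0.793 and 0.774. The 46 assembly factor genes were at 0.838 and 0.827, and among them the complex II factor Sdhaf1 was higher, at 1.70 and 1.77 times. The 13 regulators, among them Nrf1, Tfam and Myc, were at 1.02 and 0.814. These list values are sums by UMI totals, without TMM scaling. The median gene was lower in ILC2 as well, by a log2 difference of -0.18 in WT and -0.27 in KO over 4420 genes. Whether the lists go beyond that shift was not tested.

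The knock-out was then set against wild type within each class. No class differed much in the summed level of the 80 genes. The log2 ratio of KO over WT was -0.042 in ILC2 (ratio 0.971, 0.958 to 0.985), -0.10 in ILC precursors (0.931, 0.918 to 0.945) and 0.060 in NK cells or ILC1 (1.04, 1.02 to 1.06). It was -0.071 in progenitors (0.952), -0.057 in plasmacytoid dendritic cells (0.961) and -0.059 in basophils or mast cells (0.960). These intervals leave out 1, but they cover counting in 1 library per genotype, and the signs in ILC2, NK cells or ILC1 and plasmacytoid dendritic cells changed under other settings. For plasmacytoid dendritic cells the setting was cells without cell cycle UMIs, with 4 WT and 10 KO cells. By complex, the ratio lay between 0.870 (complex III in ILC precursors) and 1.06 (complexes I and III in NK cells or ILC1), and it was below 1 for all 5 complexes in ILC precursors, progenitors, plasmacytoid dendritic cells and basophils or mast cells. The 13 subunits encoded by mitochondrial DNA were at 1.07 times in ILC2, 1.06 times in NK cells or ILC1 and 1.01 to 1.03 times in the others. The kept cells themselves were limited in their mitochondrial share.

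Gene by gene the members stayed close to the bulk of genes. The median log2 difference over members was -0.059 in ILC2 (70 members passing the filter), -0.088 in ILC precursors (73), 0.051 in NK cells or ILC1 (76), -0.053 in progenitors (75), -0.054 in plasmacytoid dendritic cells (75) and -0.078 in basophils or mast cells (74). Over all genes tested in the same classes it was -0.066, -0.027, -0.0030, -0.043, -0.027 and -0.030. The members' middle quartiles ran from -0.12 to 0.025 in ILC2, inside those of all genes, from -0.21 to 0.074. No member was past 1.5-fold in ILC2, where 1.67% of all genes were higher and 1.74% lower in KO. Likewise none was in ILC precursors (3.01% higher and 1.73% lower), progenitors (1.28% and 0.938%) or plasmacytoid dendritic cells (1.66% and 1.58%). In NK cells or ILC1 (2.43% and 1.88%) and in basophils or mast cells (1.45% and 2.27%) 0 members were higher and 1 was lower, Cox6a2 in both.

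**Figure D5:**
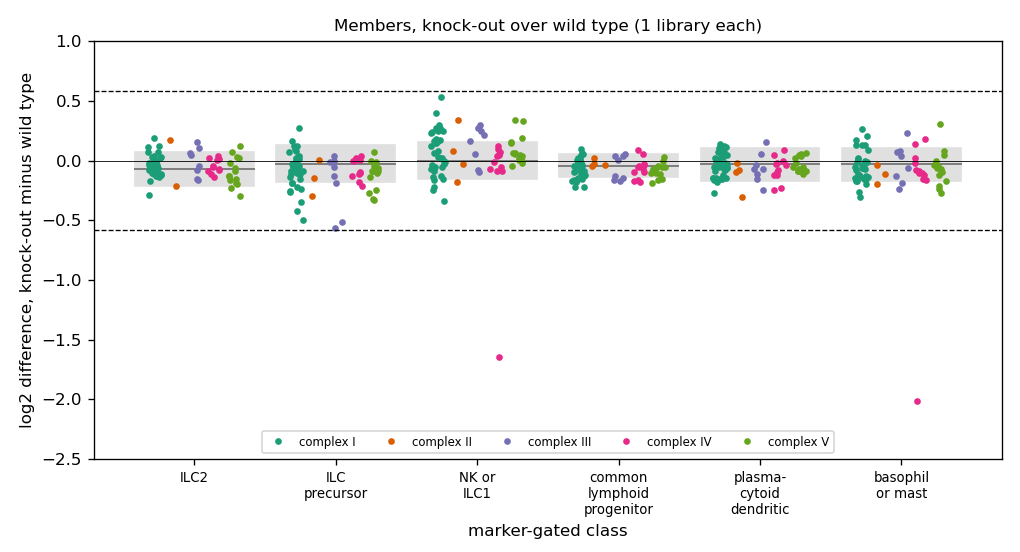
Difference of log2(CPM + 5), KO minus WT (y axis), for the members that passed the filter in each class (x axis), coloured by complex. Grey boxes span the middle quartiles of all genes tested, grey lines are their medians, and dashed lines mark 1.5-fold. The members lie within the dashed lines except Cox6a2 in NK cells or ILC1 (-1.65) and in basophils or mast cells (-2.01).

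Cox6a2 was at 59.3 CPM (WT) and 15.5 CPM (KO) NK cells or ILC1 (52 and 42 UMIs, KO over WT 0.261, 0.170 to 0.400). In basophils or mast cells it was at 55.5 and 9.96 CPM (117 and 17 UMIs, ratio 0.180, 0.101 to 0.300). It passed the filter there through the WT level only. In ILC2, below the filter, it was at 47.6 and 19.6 CPM, and in ILC precursors at 16.5 and 4.04 CPM. Siglech was lower in KO in the same 4 classes, at 47.9 and 4.43 CPM in NK cells or ILC1, 26.5 and 8.79 in basophils or mast cells, 23.7 and 7.10 in ILC2, and 5.02 and 0.758 in ILC precursors. The 9 dendritic cell markers summed to 547 and 311 CPM, 139.8 and 83.8 CPM, 453 and 393 CPM, and 134 and 139 CPM in these classes, with 5 to 7 of the 9 detected and Klk1 and Cd209d at 0 in all of them. Their part in the Cox6a2 difference was not tested. In plasmacytoid dendritic cells the KO over WT ratio of Cox6a2 was 0.853 (0.813 to 0.896), and in progenitors 1.04 (0.988 to 1.09).

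Just inside the fold were Uqcrq and Uqcrc2, a core protein of complex III, in ILC precursors, and Ndufa12 in NK cells or ILC1. Uqcrq was at 633 and 425 CPM (log2 -0.57, ratio 0.672, 0.619 to 0.730), Uqcrc2 at 157 and 109 CPM (-0.51, ratio 0.692, 0.587 to 0.818), and Ndufa12 at 117 and 172 CPM (0.53, ratio 1.46, 1.18 to 1.83). In ILC2, Uqcrq had the other sign, 0.16.

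Over the classes, the members with the lowest and highest median log2 difference were Ndufs1 (-0.34, measured in 1 class) and Ndufb10 (0.11) for complex I, Sdha (-0.13) and Sdhb (0.011) for complex II, Uqcrb (-0.17) and Uqcrc1 (0.046) for complex III, Cox6a2 (-0.94, 4 classes) and Cox7a2l (0.027) for complex IV, and Atp5j2 (-0.11) and Atp5g1 (0.049) for complex V. Of 70 members measured in all 6 classes, 4 were lower in KO in every class, Ndufc1, Ndufa5 and Sdha among them, and 0 were higher in every class. These 4 are 5.71% of the 70, and of the 2088 genes measured in all 6 classes 7.998% were lower in every class and 6.08% higher. Sdha, the flavoprotein of complex II, was at 127 CPM (WT) and 102 CPM (KO) plasmacytoid dendritic cells, 96.3 and 82.2 CPM in ILC2, and its log2 difference was -0.15 to -0.028 in the other classes. Of the surrounding lists, past 1.5-fold were the assembly factor Uqcc2 (77.5 and 129.5 CPM, higher) and the ribosomal protein genes Mrpl17 and Mrpl48 (higher) in NK cells or ILC1 and Mrps28 (lower) in ILC precursors. In NK cells or ILC1 9 assembly factors and 44 ribosomal protein genes passed the filter, and 2.43% of all genes were higher. In ILC precursors 47 ribosomal protein genes passed it, and 1.73% of all genes were lower. The citric acid cycle, carrier, regulator and mitochondrially encoded lists had 0 past 1.5-fold in the 6 classes. Only 1 to 3 of the 13 regulators and 7 to 11 of the 13 citric acid cycle genes passed the filter in a class. Most regulators could therefore not be called.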

How the data were processed

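Members, gene lists and class markers were chosen with earlier results of these data known. The deposited files hold whole UMI counts per gene and barcode that the authors made with Cell Ranger (version 3.1.0 per the file headers), on mm10 per the submitters' processing notes, which also name Seurat. No source used here gives an annotation release. UMIs of members with near-identical processed pseudogenes may be split or lost.

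A cell took the marker list with the most detected markers, at least 3 and at least 2 more than any other list; with 3 or more Siglech UMIs the progenitor list did not compete. This scoring was set after seeing the data. No doublet caller was run; cells with close marker counts stayed ungated, but 932 WT and 1466 KO classed cells had 3 or more markers of another list as well. Counts were summed per class and library, since 1 library per genotype allows no test. Intervals are exact (Poisson for CPM, Clopper-Pearson for shares and, given the sum of both counts, for ratios; 95%). Differences are on log2(CPM + 5). A difference past 1.5-fold between genotypes needed 50 UMIs, 50 CPM in the higher library and an interval without 1; between classes, the fold in both libraries. The files give 47883132 WT and 52137780 KO UMIs. On simulated counts this rule found 33.8% to 43.5% of 1.5-fold and 100% of 2-fold changes in the 6 classes. Of unchanged genes it called from 0 of 2691 in ILC2 to 18 of 3036 in NK cells or ILC1. With 1 library per genotype, variation between libraries could not be estimated for it. Genes named are the complex IV isoform families, the Atp5g genes, the 10 most and 5 least class-dependent members, those past the fold, and the extremes of each complex. Class dependence here is the highest class over the median class, which does not see a low class. Others (Uqcrh, Uqcrc2, Ndufa4 and those named by counts) were chosen after their values were seen. Alternatives were other scalings (TMM, edgeR 4.0.16), cell filters, gates, thinning to 1500 UMIs and cell-weighted means. Tools were Python 3.11.15, numpy 2.4.6, scipy 1.17.1 and pandas 2.3.3. Coordinates are from GENCODE vM21 (GRCm38). One member is counted in the sums and counts but is not reported singly here.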

Additional observations from a re-analysis of the deposited data

How the results depend on the processing

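No paired analysis was possible because each genotype has 1 library. Of 118 alternative values 56 stayed within the counting interval or 1.5 times the count, 62 moved and 0 reversed a called difference; the causes were not tested. With TMM scaling the summed log2 KO over WT became 0.047 in ILC2, -0.041 in ILC precursors, 0.10 in NK cells or ILC1, -0.011 in progenitors and -0.021 in basophils or mast cells. With at least 500 genes it was -0.060 in progenitors. With at most 5% mitochondrial UMIs it was 0.12 in NK cells or ILC1, -0.046 in progenitors and -0.0036 in basophils or mast cells. Thinned, it was -0.017 in ILC2, -0.0033 in NK cells or ILC1, -0.11 in progenitors, -0.0099 in plasmacytoid dendritic cells and -0.22 in basophils or mast cells. With a stricter gate (4 markers, 3 more than any other list) it was -0.067 in ILC2, -0.14 in ILC precursors, 0.13 in NK cells or ILC1 and -0.058 in progenitors. As a mean over cells it was -0.021 in ILC2, -0.081 in ILC precursors, -0.020 in NK cells or ILC1, -0.095 in progenitors, -0.024 in plasmacytoid dendritic cells and -0.21 in basophils or mast cells. Chosen after seeing the data, cells without cell cycle UMIs gave -0.058 in NK cells or ILC1, -0.24 in progenitors (18 WT and 38 KO cells) and 0.062 in plasmacytoid dendritic cells (4 WT and 10 KO cells), and a looser gate (1 marker more) gave -0.076 in ILC2. Members past the fold over the 6 classes, 0 higher and 2 lower in KO in the report, are given with their share of members tested and that of all genes. Higher were 5 thinned (1.202%, all genes 3.49%), 5 with the stricter gate (1.13%, 2.87%), all in NK cells or ILC1, and 2 without cell cycle UMIs (0.733%, 4.47%). Lower were 13 thinned (3.125%, 3.99%), of which 8 in basophils or mast cells (12.5%, 5.65%), 6 with no filter on low counts (1.26%, 2.25%), 8 without cell cycle UMIs (2.93%, 4.34%) and 4 with the looser gate (0.897%, 1.36%). With the stricter gate 2 were lower (0.451%, 2.63%), 1 in ILC2 and 1 in ILC precursors. NK cells or ILC1 and basophils or mast cells, which held the 2 of the report, then had 0 lower. The summed level of ILC2 over the other classes, 0.773 in WT and 0.723 in KO, was 0.821 and 0.832 with TMM scaling (also added later), 0.795 and 0.794 thinned, 0.787 and 0.703 with the stricter gate, 0.834 and 0.870 without cell cycle UMIs, and 0.780 and 0.749 with the looser gate. Cox6a2 in plasmacytoid dendritic cells was 2021 and 1728 CPM without mitochondrial UMIs in the total, 1726 and 1493 with TMM scaling, 1992 in WT with at most 5% mitochondrial UMIs, 1839 in KO thinned, 2153 and 1779 with the stricter gate, 1857 and 1776 as a mean over cells, and 1637 and 1491 with the looser gate. In progenitors it was 306 and 318 CPM without mitochondrial UMIs in the total, and in WT 303 with at least 500 genes, 321 thinned and 352 as a mean over cells. Depth limits Cox4i2 and Cox7a1, with few UMIs, and calls under 1.5-fold.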
